A study of Mus musculus with 10 samples.

Results

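The synaptotagmin genes Syt1, Syt2, Syt3, Syt4, Syt5, Syt7, Syt9, Syt11, Syt13 and Syt14 were followed in isolated mouse pancreatic islets at 2 points of the 24 h cycle. Each of the 10 genes was named alone by exactly 1 row of the array's annotation table, and this row was used, out of 32814 transcript rows that name at least 1 gene. Islets came from male C57BL/6 mice (C57Bl/6J in the paper's methods) with a stated age of 10 weeks. There were 5 samples at ZT8 and 5 at ZT20, and 1 array was hybridised per sample. The paper's methods place some weeks of acclimatization between that age and killing, so the mice may have been older at islet isolation. ZT counts hours from lights on, so ZT8 lies in the light phase, when mice rest, and ZT20 in the dark phase, when they feed. By the paper's methods all animals were killed at the same clock time and mice of the ZT20 group had their lights on at night, so the time of the cycle and this housing cannot be told apart. Titles of the samples use CT for the same hours that their time point field gives as ZT. The culture before lysis is given as 24 h in the descriptions and as overnight in the extraction protocol. No treatment or mutation was applied in either group. The samples are called biological replicates in their titles, and a supplementary heading of the paper gives 5 animals per genotype. Neither ties a sample to an animal, so p-values measure the spread between these samples.

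Synaptotagmins are membrane proteins of secretory vesicles and of the plasma membrane with a pair of C2 domains facing the cytosol. In the classical members, acidic residues in the loops of these domains bind calcium, the domains then bind phospholipid and the SNARE proteins that join the membranes, and the vesicle fuses. Beta cells release insulin granules in this way when glucose closes potassium channels and calcium enters, and Syt7 is the member best known for this step in islets. Other members have lost the acidic residues and do not act as calcium sensors.

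The arrays carried the signal of islet cells. The hormone genes Ins2, Gcg, Sst and Ppy had mean log2 signals of 13.18, 12.09, 12.60 and 13.33, and the beta cell gene Iapp 13.06. The tissue was not free of exocrine cells, since the acinar protease genes Ctrb1 and Cela1 stood at 13.47 and 12.69. The mean over 5 acinar markers ranged from 11.82 to 13.08 on the ZT8 arrays and from 11.84 to 12.97 on the ZT20 arrays. The mean over 8 beta cell markers ranged from 10.86 to 11.33 and from 10.92 to 11.25. Of the duct genes, Krt19 was at 9.49 and Krt7 at 9.32, and of the endothelial genes Cdh5 was at 9.49 and Kdr at 9.17. The stellate cell genes Pdgfrb and Col1a1 stood at 8.96 and 8.26, and the macrophage genes Cd68 and C1qa at 8.67 and 8.64. Several transcription factors were dim, with Irx2 of alpha cells at 7.07, Hhex of delta cells at 6.31 and the Schwann cell genes Sox10 and Foxd3 at 7.03 and 6.96. Of the beta cell factors, Mafa was at 7.23 and Nkx6-1 at 10.30. Hhex, Sox10 and Foxd3 lay below the brightest background control row of the arrays, at 7.07. The autonomic neuron genes Th and Prph were at 8.90 and 7.10. In the same list Slc18a3, Chat and Dbh were at 6.06, 5.77 and 5.44. These lists are shown by their brightest genes, and others were dimmer, such as the duct gene Cftr at 3.27. The leukocyte genes Adgre1 and Ptprc were at 5.85 and 5.49. None of the 47 measured markers of the 11 cell type lists passed the test between ZT8 and ZT20, where 0.744% of all tested rows did. By sign alone, 5 of 5 acinar (median difference 0.14) and 6 of 8 beta cell markers (0.079) were higher at ZT8. Lower were 5 of 5 stellate cell (-0.16), 5 of 5 endothelial (-0.074) and 5 of 6 macrophage markers (-0.091). Of 5 autonomic neuron (-0.087) and 3 Schwann cell markers (-0.024), 0 were higher. The other lists were split or held 1 gene, and the median over all tested rows was -0.032. The part of these cell types in the values below was not tested, except for the acinar mean as a covariate. The clock genes followed the time labels: Nr1d1, which encodes the repressor REV-ERBα, was higher at ZT8 by 1.17 (SE 0.099, limma adjusted p = 0.0012), without overlap. Arntl, the gene of the activator BMAL1, averaged 8.01 ± 0.14 and 8.71 ± 0.24 (limma adjusted p = 0.036). In islet RNA as a whole, fewer cells of a type and less RNA per cell cannot be told apart.

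All 10 synaptotagmins gave a signal above the median row of the array, which lay at 6.26, and they spread over a wide range of brightness. Syt13 had the brightest signal, 10.90 ± 0.13 (SD over 10 arrays), followed by Syt5 at 10.72 ± 0.15 and Syt4 at 10.72 ± 0.074. Syt7 came next at 9.47 ± 0.091, then Syt14 at 9.01 ± 0.13, Syt11 at 8.62 ± 0.059 and Syt9 at 8.27 ± 0.075. Syt3 at 7.40 ± 0.16, Syt2 at 6.85 ± 0.073 and Syt1 at 6.62 ± 0.078 were dim. These are brightnesses of different probe sets, which differ in affinity, so the order ranks array signals and not amounts of mRNA. Of the 10 genes, 8 lay above the brightest of 23 background control rows, whose means ran from 2.14 to 7.07, and Syt1 and Syt2 did not. The signal of Syt1 and Syt2, the fast calcium sensors of neurons, was therefore not separated from the brightest of these control rows. It lay above 55.7% (Syt1) and 59.4% (Syt2) of all tested rows, and controls matched to their probes were not compared.

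**Figure D1:**
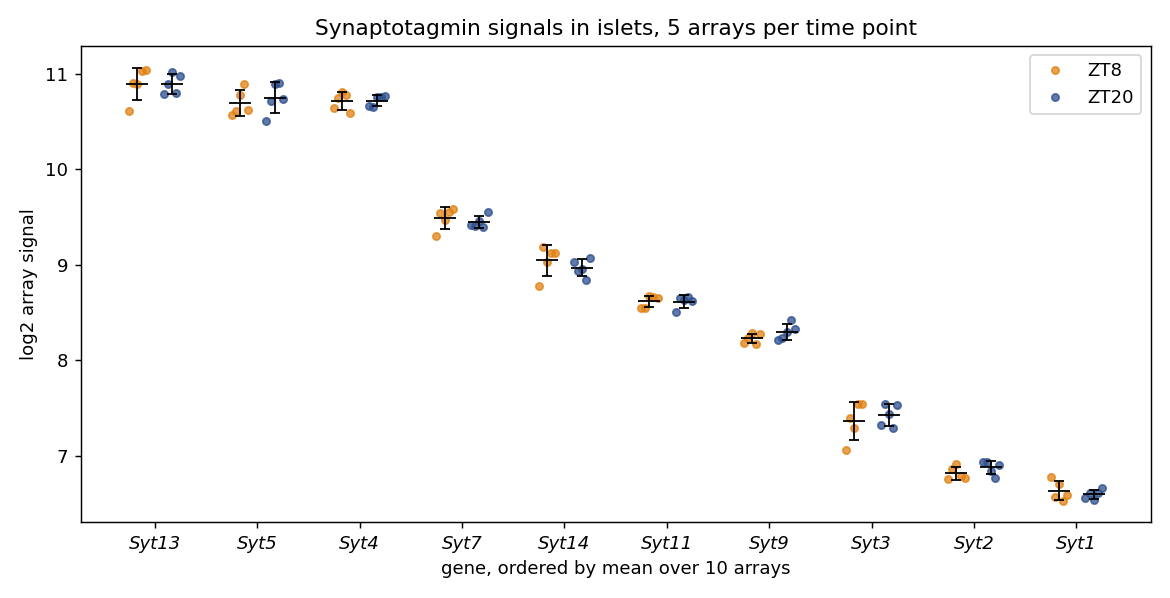
Log2 array signal of the 10 synaptotagmin genes (vertical axis) ordered by their mean (horizontal axis). Points are the 5 ZT8 (orange) and 5 ZT20 (blue) arrays, and black bars give the mean and SD of each group. The groups overlap for every gene, and Syt13, Syt5 and Syt4 form a bright set more than 1 log2 unit above Syt7.

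The order of signals was nearly the same on every array. Syt7, Syt14, Syt11, Syt9 and Syt3 held ranks 4, 5, 6, 7 and 8 on all 10 arrays. The step from Syt4 down to Syt7 was the widest, 1.25 ± 0.10 (SD of the within-array difference, n = 10). At the top, Syt13 was first on 8 arrays, Syt5 on 1 and Syt4 on 1. Syt13 exceeded Syt5 on 9 of 10 arrays by 0.17 ± 0.14, with a lowest difference of -0.11, and Syt5 exceeded Syt4 on 5 of 10 by 0.0080 ± 0.11. Neither order held on all 10 arrays, and nor did that of Syt2 over Syt1. The difference of Syt2 and Syt1 was 0.23 ± 0.11, ran from -0.017 to 0.38 and was above 0 on 9 arrays. The mean difference exceeded its SD for Syt2 and Syt1 and for Syt13 and Syt5, but not for Syt5 and Syt4.

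The comparison between ZT8 and ZT20 asks whether the calcium sensors of exocytosis change their expression between the phase of low and the phase of high insulin secretion. None of the 10 genes passed the test. Their differences, ZT8 minus ZT20, lay between -0.070 and 0.080 on the log2 scale, 4 above 0 and 6 below, with a median of -0.0029, against a median of -0.032 over all tested rows. That median varied with brightness, from -0.067 in the dimmest quintile of rows to 0.049 in the brightest. The 10 genes lay above 55.7% (Syt1) to 97.7% (Syt13) of the rows, and were not compared with rows of like brightness. Adjusted p-values from limma ran from 0.47 to 1.0, and 0.744% of the tested rows passed at an adjusted p under 0.05. No synaptotagmin lay at an unadjusted p under 0.05 in limma or in the methods' t-test, where 18.5% and 16.6% of the rows did. In none of the 10 did the 5 ZT8 and 5 ZT20 arrays separate, as they did in 5.92% of the rows. With all 10 arrays, the 95% confidence intervals of the differences reached a change in either direction of 1.08-fold for Syt11, the narrowest, and 1.19-fold for Syt3, the widest. After quantile normalization the differences of Syt5, Syt9, Syt4 and Syt13 were -0.15, -0.10, -0.098 and -0.094, below the range given above, and none passed (adjusted p from limma of 0.42, 0.32, 0.35 and 0.61). Exact permutation tests of the single genes gave two-sided p-values from 0.16 for Syt9 to 1.0 for Syt13. The same genes had a median absolute difference of 0.051, against 0.077 over all tested rows.

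**Figure D2:**
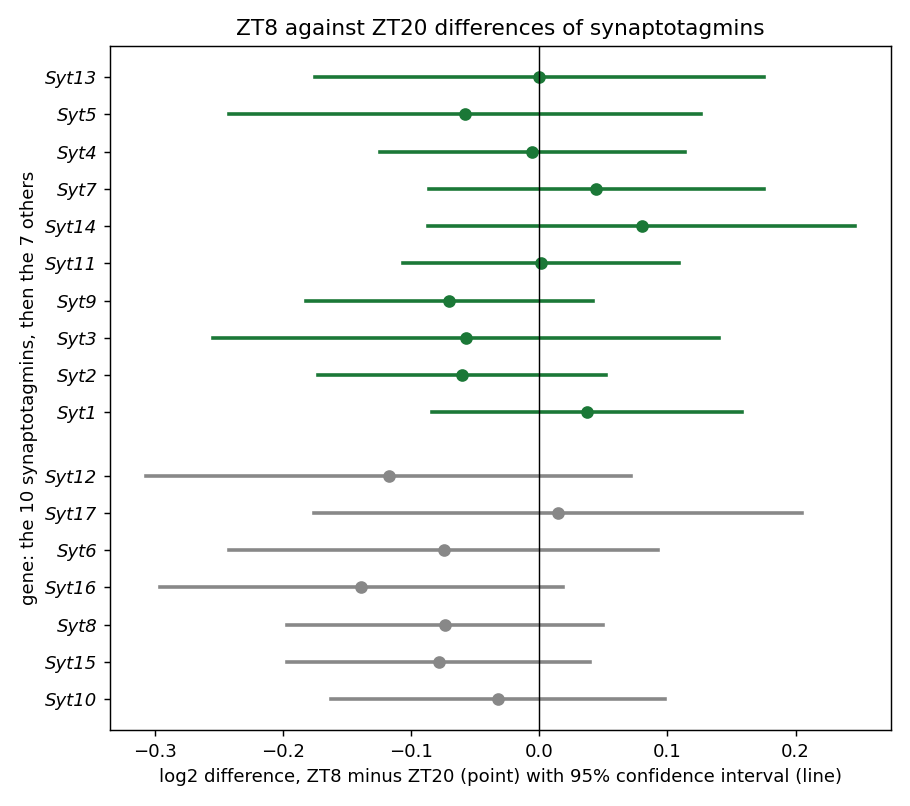
Log2 difference ZT8 minus ZT20 (horizontal axis, point) with its 95% confidence interval from limma (line) for the 10 synaptotagmins (green) and the 7 other measured synaptotagmins (grey). Every interval crosses 0, and the differences of the 10 genes lie between -0.070 and 0.080.

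Among the calcium sensors of regulated secretion, Syt9 and Syt5 are carried on dense core granules of endocrine cells. Syt9 was at 8.19, 8.24, 8.28, 8.17 and 8.27 on ZT8 arrays 1 to 5 and at 8.21, 8.24, 8.30, 8.42 and 8.33 on ZT20 arrays 1 to 5. No ZT8 value exceeded the ZT20 median, but the ranges overlapped, and the difference was -0.070 (SE 0.052, 95% interval -0.18 to 0.042, adjusted p = 0.47 from limma). Syt9 had the smallest unadjusted p of the 10 genes, 0.20 from limma.

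Syt5 read 10.57, 10.62, 10.78, 10.89 and 10.62 at ZT8 and 10.50, 10.72, 10.89, 10.91 and 10.74 at ZT20. Its lowest and highest arrays were both ZT20 arrays, and the difference of -0.058 (SE 0.085, 95% interval -0.24 to 0.13) was smaller than the SD of either group, 0.14 and 0.16. It was -0.12 without ZT20 replicate 1, -0.11 without ZT8 replicate 4, -0.026 without ZT8 replicate 1 and -0.019 without ZT20 replicate 4, and passed in none of these. The neuronal sensors Syt1 and Syt2 had differences of 0.037 (SE 0.056, adjusted p = 0.74 from limma) and -0.061 (SE 0.052, adjusted p = 0.53 from limma), on the dim signals given above.

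Syt7 and Syt3 bind calcium with higher affinity than the neuronal sensors. Syt7 takes part in glucose-stimulated secretion of insulin and in the secretion of glucagon. Syt7 was at 9.30, 9.54, 9.47, 9.56 and 9.59 on the ZT8 arrays and at 9.42, 9.41, 9.46, 9.40 and 9.55 on the ZT20 arrays. On 4 of the 5 ZT8 arrays it lay above the ZT20 median, whereas ZT8 replicate 1 was the lowest of all 10. The difference was 0.044 (SE 0.060, 95% interval -0.087 to 0.18, adjusted p = 0.71 from limma). Without ZT8 replicate 1 it was 0.092 (adjusted p = 0.30 from limma).

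Syt3 showed the same low array, with 7.07, 7.40, 7.29, 7.55 and 7.54 at ZT8 and 7.32, 7.55, 7.43, 7.29 and 7.53 at ZT20. Its SD of 0.20 at ZT8 was the largest of any of the 10 genes in either group, and its difference was -0.057 (SE 0.091, adjusted p = 0.76 from limma). Without single arrays this ran from -0.10 (without ZT8 replicate 4) to 0.018 (without ZT8 replicate 1).

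Syt4 and Syt11 form a pair with an altered calcium-binding site in the first C2 domain, and Syt4 is known to raise the calcium needed for insulin release as mouse beta cells mature. Syt4 was at 10.64, 10.75, 10.81, 10.78 and 10.59 at ZT8 and at 10.66, 10.65, 10.76, 10.75 and 10.76 at ZT20. Its difference was -0.0057 (SE 0.055, 95% interval -0.12 to 0.11, adjusted p = 0.96 from limma). The ZT20 arrays lay within the range of the ZT8 arrays, whose SD was 0.095 against 0.057.

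Syt11, which restrains membrane uptake in neurons, read 8.55, 8.55, 8.67, 8.66 and 8.65 at ZT8 and 8.50, 8.65, 8.64, 8.66 and 8.62 at ZT20, the least variable of the 10 genes. The difference was 0.0012 (SE 0.050, adjusted p = 0.99 from limma).

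Syt13 and Syt14 lack the calcium-binding residues. Syt13 is known from the mouse as a protein of endocrine precursor cells during islet formation. It was at 10.62, 10.90, 10.90, 11.03 and 11.04 at ZT8 and at 10.78, 10.90, 11.02, 10.80 and 10.98 at ZT20. Both the lowest and the highest value were ZT8 arrays, replicates 1 and 5, and the group means of 10.90 ± 0.17 and 10.90 ± 0.10 (SD, n = 5) left a difference of -0.00010 (SE 0.081, 95% interval -0.18 to 0.18). With all 10 arrays this interval reached a 1.13-fold change, and without ZT8 replicate 1 the difference was 0.070 (adjusted p = 0.51 from limma).

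Syt14, whose human counterpart is linked to an inherited ataxia, had the largest difference of the 10 genes. It was at 8.78, 9.19, 9.03, 9.12 and 9.13 at ZT8 and at 9.03, 8.93, 8.96, 8.85 and 9.08 at ZT20. On 4 ZT8 arrays it lay above the ZT20 median and on ZT8 replicate 1 below every ZT20 array. The difference was 0.080 (SE 0.077, 95% interval -0.087 to 0.25, adjusted p = 0.58 from limma). Without ZT8 replicate 1 it was 0.15, at an unadjusted p of 0.027 and an adjusted p of 0.18, still short of the threshold.

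Promoter windows from RefSeq (GRCm38.p6, 250 bases before to 50 after a start) were at hand for 6 of the 10 genes, Syt1, Syt2, Syt3, Syt9, Syt11 and Syt14, in 8 windows. Because the samples differ in clock phase, these windows were searched on both strands for the letters CACGTG (the E-box bound by BMAL1 and CLOCK), TTATGTAA (a D-box) and AGGTCA (the core of the site of REV-ERB and ROR receptors). CACGTG was in the window of Syt14 only, and in 7.15% of all 32851 windows. AGGTCA was in windows of Syt1 and Syt2, and in 16.3% of all windows, and TTATGTAA in none of these 8 and in 0.938% of all. The Syt14 stretch is shown because it holds the match in the gene with the largest difference. It lies on chromosome 1 at chr1:193035842-193035961, minus strand, read 5′ to 3′ with the match in capitals. The match sits before the start used in the table, with 71 bases between them. Counted inward from the outer end of the annotated gene, at 193035871, the last base of the match is base 25.
Syt14: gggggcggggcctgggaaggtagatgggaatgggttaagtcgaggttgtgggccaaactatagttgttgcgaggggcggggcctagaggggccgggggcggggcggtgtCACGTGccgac
A match of letters does not show binding, and Syt14 did not pass the test between ZT8 and ZT20.

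The SD between arrays of the same time point exceeded the difference between time points in both groups for most of the genes (not for Syt9, whose SD was 0.050 at ZT8), and the deviations were shared among several genes. ZT8 replicate 1 was the lowest of the 10 arrays for Syt2, Syt3, Syt7, Syt13 and Syt14, and 9 of the 10 genes lay below their own mean there, by 0.13 on average. The median of all tested rows on that array lay at -0.0067 from its mean. ZT20 replicate 1 was next, with 8 genes below their mean and an average of -0.062. On ZT20 replicate 5 all 10 genes lay above their mean, by 0.061 on average.

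**Figure D3:**
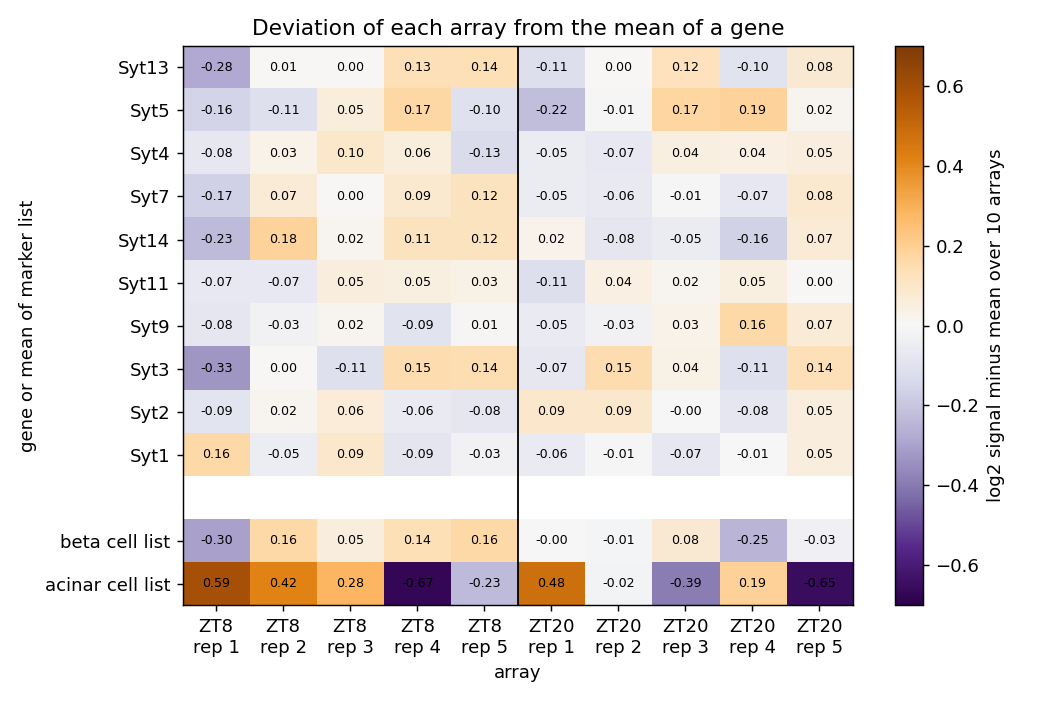
Log2 signal minus the mean over the 10 arrays, for each synaptotagmin and for the mean of the 8 beta cell and the 5 acinar markers (rows) on each array (columns, ZT8 left of the line and ZT20 right of it). Orange is above and purple below the mean. On ZT8 replicate 1, 9 of 10 synaptotagmins and the beta cell list are low and the acinar list is at its highest, 0.59.

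With the group means removed, 45 pairs of synaptotagmins were compared over the 10 arrays. Pearson's r passed in 5 pairs at a permutation p adjusted over the 45, and Spearman's rho in none. Syt13 and Syt3 varied together (r = 0.90, permutation p = 0.00047, adjusted p = 0.015; rho = 0.87, permutation p = 0.0022, adjusted p = 0.051), as did Syt7 and Syt14 (r = 0.91, permutation p = 0.00068, adjusted p = 0.015; rho = 0.89, permutation p = 0.0012, adjusted p = 0.051). Syt13 and Syt7 (r = 0.90, permutation p = 0.0011, adjusted p = 0.016; rho = 0.84, permutation p = 0.0040, adjusted p = 0.060) and Syt7 and Syt3 (r = 0.86, permutation p = 0.0018, adjusted p = 0.021; rho = 0.75, permutation p = 0.018, adjusted p = 0.16) linked a set of 4 genes, in which Syt14 with Syt3 (r = 0.77, adjusted permutation p = 0.072) and Syt13 with Syt14 (r = 0.74, adjusted permutation p = 0.10) did not pass. The fifth pair was Syt5 with Syt11 (r = 0.82, permutation p = 0.0027, adjusted p = 0.024; rho = 0.81, permutation p = 0.0076, adjusted p = 0.085). Without the 2 arrays farthest from the median of the first gene, r fell to 0.76, 0.74, 0.71, 0.72 and 0.67 in these pairs, in the order given. Within the ZT8 arrays r was 0.97, 0.96, 0.97, 0.97 and 0.76, and within the ZT20 arrays 0.70, 0.74, 0.69, 0.54 and 0.87. For Syt14 with Syt3 and for Syt13 with Syt14, r fell to 0.24 and 0.34 without 2 arrays chosen likewise. Within ZT8 it was 0.88 and 0.88, and within ZT20 0.40 and 0.32. Syt1 had r of -0.64, -0.63, -0.60 and -0.67 to Syt13, Syt3, Syt7 and Syt14, none of which passed (adjusted permutation p from 0.17 to 0.24). In the same order, r was -0.85, -0.93, -0.90 and -0.90 within ZT8 and 0.084, 0.44, 0.51 and 0.20 within ZT20. Without ZT8 replicate 1 it was -0.30, -0.33, -0.20 and -0.35. The mean signal of Syt1 lay below the brightest background control row.

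**Figure D4:**
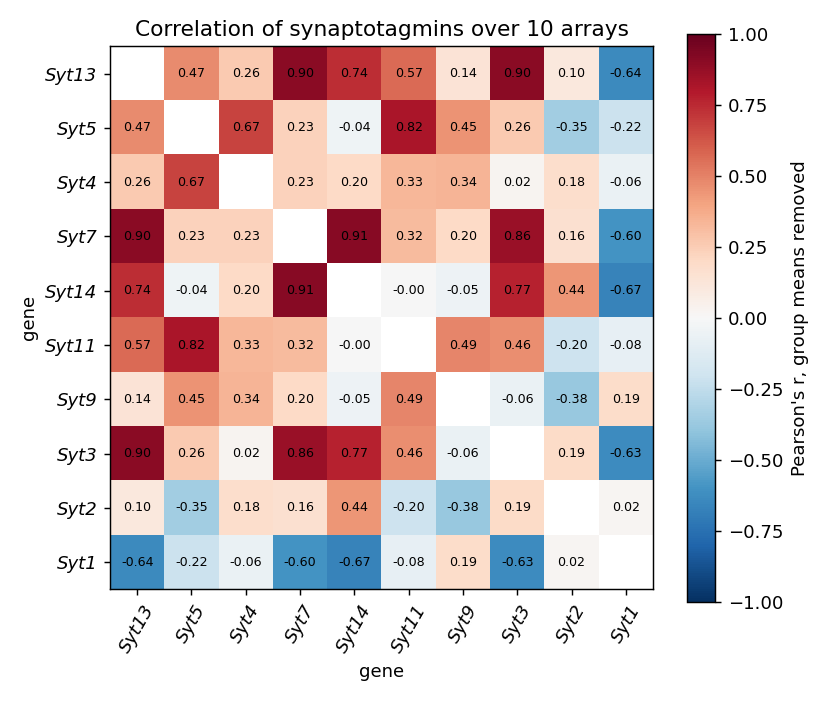
Pearson's r between each pair of synaptotagmins over the 10 arrays after the mean of each time point was subtracted, with red above and blue below 0. Syt13, Syt7, Syt3 and Syt14 form a block with r from 0.74 to 0.91, in which Syt14 with Syt3 and with Syt13 did not pass. Syt1 is negative against each of these genes over the 10 arrays but positive within the ZT20 arrays alone.

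Some of these genes moved with the cell type markers of the arrays, a comparison chosen after the values were seen. Over 20 relations, with group means removed, Syt13 was lower where the mean of the 5 acinar markers was higher (r = -0.83, permutation p = 0.0023, adjusted p = 0.017; rho = -0.83, permutation p = 0.0048, adjusted p = 0.048). This relation held without the 2 arrays of most extreme acinar level, ZT8 replicate 4 and ZT20 replicate 5 (r = -0.87), within ZT8 (r = -0.81) and within ZT20 (r = -0.92). Syt3 (r = -0.78, permutation p = 0.0082, adjusted p = 0.023; rho = -0.76, permutation p = 0.015, adjusted p = 0.076) and Syt7 (r = -0.72, permutation p = 0.014, adjusted p = 0.036; rho = -0.68, permutation p = 0.035, adjusted p = 0.12) followed, with r of -0.72 and -0.63 without these 2 arrays. Within ZT8 their r was -0.84 and -0.69, and within ZT20 -0.71 and -0.84. Syt14 did not pass (r = -0.46, permutation p = 0.19, adjusted p = 0.34; rho = -0.35, permutation p = 0.33, adjusted p = 0.51). Syt4, as bright as Syt5, had an r of -0.26 to the acinar mean (permutation p = 0.47, adjusted p = 0.67; rho = -0.45, permutation p = 0.19, adjusted p = 0.35), and Syt9 an r of -0.061 (permutation p = 0.87, adjusted p = 0.87; rho = -0.13, permutation p = 0.73, adjusted p = 0.92). Syt5 had an r of -0.57 (permutation p = 0.087, adjusted p = 0.17) and a rho of -0.71 (permutation p = 0.028, adjusted p = 0.11). Syt11 had an r of -0.61 (permutation p = 0.063, adjusted p = 0.14) and a rho of -0.53 (permutation p = 0.12, adjusted p = 0.25). For 8 of the 10 genes r to the acinar mean was below 0, and for Syt2 and Syt1 it was 0.17 and 0.37. The values of these genes were not tested against that of Syt13.

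Towards the mean of the 8 beta cell markers, Syt14 (r = 0.89, permutation p = 0.0026, adjusted p = 0.017; rho = 0.64, permutation p = 0.054, adjusted p = 0.15) and Syt13 (r = 0.85, permutation p = 0.0031, adjusted p = 0.017; rho = 0.76, permutation p = 0.015, adjusted p = 0.076) were positive, as were Syt7 (r = 0.82, permutation p = 0.0041, adjusted p = 0.017; rho = 0.60, permutation p = 0.073, adjusted p = 0.16) and Syt3 (r = 0.81, permutation p = 0.0037, adjusted p = 0.017; rho = 0.60, permutation p = 0.073, adjusted p = 0.16). These 4 relations rested on ZT8 replicate 1 and ZT20 replicate 4, the arrays with the lowest beta cell mean, since without them r was 0.32, 0.53, 0.37 and 0.34, in the order given. Within ZT8 these r were 0.98, 0.94, 0.98 and 0.92, and within ZT20 0.60, 0.61, 0.36 and 0.52. Syt1 was lower where the beta cell mean was higher (r = -0.77, permutation p = 0.0081, adjusted p = 0.023; rho = -0.85, permutation p = 0.0028, adjusted p = 0.048), also without these 2 arrays (r = -0.85), with -0.88 within ZT8 and -0.42 within ZT20. The array values share normalization and RNA input, and the part of exocrine RNA in these relations was not tested. Syt1, with a mean of 6.62 and values from 6.53 to 6.78, lay below the brightest background control row, at 7.07.

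With the acinar mean as a covariate in limma, an alternative chosen after the values were seen, none of the 10 genes passed either. The difference of Syt13 was then 0.038 (adjusted p = 0.70 from limma) and that of Syt14 0.099 (adjusted p = 0.42).

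Over all 10 arrays, the rows most like Syt13 among 30636 that name 1 other gene were those of Aplp1, which encodes a relative of the amyloid precursor protein (r = 0.985, rho = 0.927), Ints3 of the Integrator complex (r = 0.977, rho = 0.915) and Cand2 (r = 0.976, rho = 0.952). These are the highest values of a search and carry no p. Without ZT8 replicate 1 they were 0.966, 0.961 and 0.947.

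The synaptotagmins outside this set were dim in islets. All 7, Syt6, Syt8, Syt10, Syt12, Syt15, Syt16 and Syt17, lay between 4.95 and 6.97, at or below the level of Syt2 apart from Syt12 at 6.97 and Syt17 at 6.91, and none lay above the brightest background control row. None passed the test. The median difference was -0.075, the lowest -0.14 and the highest 0.015, and 1 of the 7 was positive. The dimmest quintile of all tested rows had a median difference of -0.067, the brightest quintile 0.049, and all tested rows -0.032. Most of the 7 genes lay near or above the median row at 6.26, so the dimmest quintile is not matched to them. Whether their lean differs from that of rows of like signal was not tested. Syt12 was at 6.91 ± 0.18 (SD, n = 5) at ZT8 and 7.03 ± 0.13 at ZT20, and Syt17, which does not need calcium, at 6.91 ± 0.10 and 6.90 ± 0.20.

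Of 10 measured other proteins with tandem C2 domains (granuphilin and other synaptotagmin-like proteins, Doc2 proteins, rabphilin and the extended synaptotagmins, which tether the endoplasmic reticulum to the plasma membrane), none passed the test, and the median difference was 0.0069. Esyt1, the brightest at 10.19, had a difference of 0.0064 (adjusted p = 0.97 from limma). Sytl4, which encodes granuphilin, the docking factor of insulin granules, was at 9.94 ± 0.26 at ZT8 and 9.76 ± 0.14 at ZT20 (difference 0.18, SE 0.11, adjusted p = 0.40 from limma).

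At an unadjusted p under 0.05, where 10.2% of the tested rows were lower at ZT8 and 8.37% higher, lay Esyt3 and Doc2a, both named here after their values were seen. Esyt3 read 7.00 ± 0.071 at ZT8 and 7.23 ± 0.10 at ZT20 without overlap (difference -0.23, SE 0.058, adjusted p = 0.081 from limma). Doc2a, a calcium sensor of slow release in neurons, read 6.64 ± 0.086 and 6.79 ± 0.13, also without overlap (difference -0.15, SE 0.067, adjusted p = 0.26 from limma). The Doc2a means and the ZT8 mean of Esyt3 lie below the brightest background control row, at 7.07. Over all tested rows, 5.92% had groups without overlap. The mean of the background control rows was itself lower at ZT8 (4.07 to 4.20) than at ZT20 (4.24 to 4.33), without overlap. Its part in these 2 differences was not tested.

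Of 16 measured SNARE proteins and regulators, on which synaptotagmins act, none passed, and the median difference was 0.047 with 10 of 16 above 0. Vamp8, the brightest at 10.38, differed by 0.038 (adjusted p = 0.75 from limma) and Snap25, a SNARE of the plasma membrane, by 0.10 (SE 0.085, adjusted p = 0.52 from limma). Stx3 alone of the 16 lay at an unadjusted p under 0.05 in limma, as did 18.5% of all tested rows, and is named for that. It read 7.52 ± 0.064 at ZT8 and 7.39 ± 0.058 at ZT20 (difference 0.13, adjusted p = 0.20 from limma).

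Of 11 measured genes of granule priming and of the SV2 family, vesicle proteins that bind synaptotagmin, none passed, and the median difference was -0.0037. Cadps, which encodes the priming factor CAPS, was at 10.10 ± 0.27 and 10.04 ± 0.17 (difference 0.061, adjusted p = 0.81 from limma), and the scaffold gene Pclo at 9.45 ± 0.18 and 9.13 ± 0.29 (difference 0.31, SE 0.13, adjusted p = 0.22 from limma). In this list 3 of 11 genes lay at an unadjusted p under 0.05, against 18.5% of all tested rows, Pclo and Rims2 (difference 0.13, adjusted p = 0.27 from limma) above 0 and Sv2b below. Rims2 and Sv2b are named after their values were seen. Sv2b had the largest negative difference of the list, from 8.28 ± 0.19 at ZT8 to 8.62 ± 0.14 at ZT20 (difference -0.35, SE 0.091, adjusted p = 0.087 from limma), with ranges of 8.08 to 8.57 and 8.52 to 8.86 that overlapped. Over these 4 lists and the 10 synaptotagmins, 0 of 54 genes passed, at a share of 0.744% over all tested rows, so this count says nothing particular about them.

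**Figure D5:**
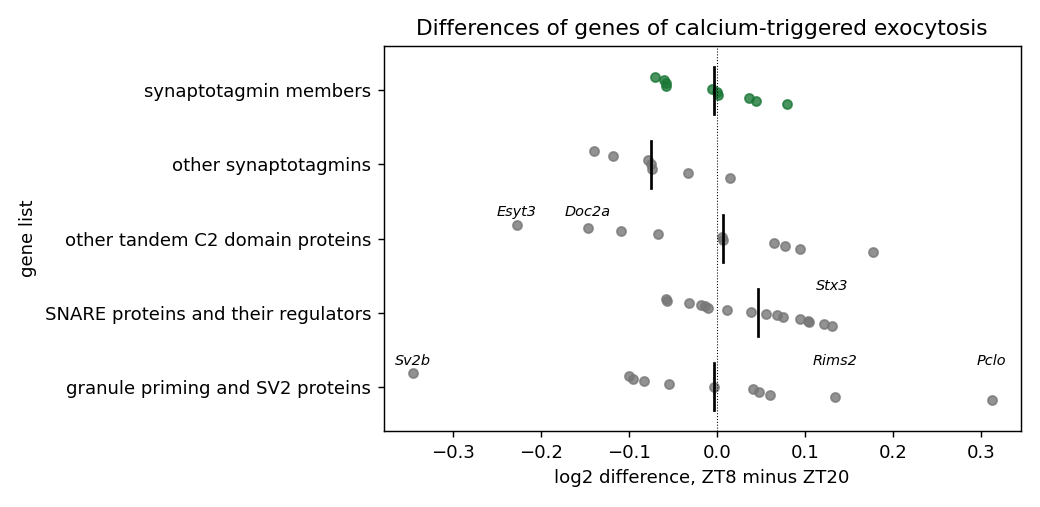
Log2 difference ZT8 minus ZT20 of each measured gene (points, horizontal axis) in the 10 synaptotagmins (green) and in 4 related gene lists (grey), with the median of each list as a black line. Genes at an unadjusted p under 0.05 are named. The differences of the 10 synaptotagmins run from -0.070 to 0.080, a width close to that of the 7 other synaptotagmins, -0.14 to 0.015.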

How the data were processed

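RNA of 10 islet samples was labelled with the Affymetrix WT Pico kit and hybridised to 1 array each. The deposited values are log2 signals per transcript cluster, made by the authors with Affymetrix Expression Console and, by the heading of a supplementary table, GCRMA normalization; settings, version and build: not given in the sources used here. A different Affymetrix array is named in the paper than the transcriptome array of the annotation table. Values were used as deposited, without a filter. The 10 genes were read from the annotation table, and each had 1 row, so averaging a gene's rows could not change a value. Arrays correlated at 0.986 to 0.995, and the most alike pair had 10 identical values. Background control rows averaged 4.07 to 4.20 at ZT8 and 4.24 to 4.33 at ZT20, without overlap.

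Groups were compared with limma 3.58.1 (lmFit, eBayes) in R 4.3.3, two-sided, over 32814 rows with Benjamini-Hochberg adjustment and a threshold of 0.05, after a run on simulated data. Intervals are at 95%. Welch's form of the test, named in the heading of that supplementary table, is called the methods' t-test. Single genes were also tested by exact permutation of the 10 arrays, and correlations with 100000 permutations. Alternatives were arrays centred on medians, quantile normalization, 3 other row sets, a trended robust prior, a block for the replicate number, array weights, the methods' t-test and each array left out, with an acinar covariate added after the values were seen.

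Named in the text are all 10 genes, the 2 clock genes and the 3 rows most like Syt13. From each list the 2 brightest genes are named unless genes passed the test, with dimmer markers given beside some. Other genes are said to be named after their values were seen. The genes and lists were chosen with earlier results of these data known. Python 3.11.15, numpy 2.4.6, pandas 2.3.3, scipy 1.17.1 and matplotlib 3.10.9 made the tables and figures. The number of arrays limits the precision.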

Additional observations from a re-analysis of the deposited data

Results flagged for a closer look

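Syt11 on ZT20 replicate 1, at 8.50 against 8.62 to 8.66 on the other ZT20 arrays, lay apart from its group, with a gap of 0.731 of the group's range against a critical value of 0.71 for 5 values. It was the only such value among 20 sets of 5 arrays, and chance gives about 1 in 20 sets.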

How the results depend on the processing

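None of the 10 synaptotagmins passed at an adjusted p under 0.05 under any of the 20 alternatives, the smallest adjusted p being 0.18. Over all rows, 244 passed as reported, 603 with arrays centred, 52 after quantile normalization, 467 among rows above the median level, 1 among all transcript rows, 227 among rows naming 1 gene, 516 with a trended robust prior, 830 with array weights, 2 by the methods' t-test, 423 with the acinar covariate and 1 to 427 without single arrays, lowest without ZT8 replicates 2, 3 or 4 or ZT20 replicate 4 and highest without ZT20 replicate 1. At an unadjusted p under 0.05 lay 1 gene after quantile normalization (Syt9) and 0 to 1 when single arrays were left out (Syt14 without ZT8 replicate 1). The median over the 10 genes ran from -0.051 after quantile normalization to 0.045 with arrays centred. Differences near 0 changed sign. With arrays centred, Syt4 was at 0.042 and Syt13 at 0.048. After quantile normalization, Syt7 was at -0.024 and Syt11 at -0.034, and Syt5, Syt9, Syt4 and Syt13 moved to -0.15, -0.10, -0.098 and -0.094. With array weights, Syt4 was at 0.026 and Syt13 at 0.018, and with the acinar covariate at 0.00080 and 0.038. Without single arrays Syt3 ran from -0.10 to 0.018, Syt4 from -0.031 to 0.025, Syt11 from -0.027 to 0.018 and Syt13 from -0.035 to 0.070. The cause was not tested.

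With the replicate number as a block, 51 rows passed in place of 244, none of them a synaptotagmin, and the median over the 10 genes stayed at -0.0029. Same-numbered arrays correlated at 0.32, 0.28, -0.13, -0.12 and 0.35 after group means were removed, and 3 of 5 ZT8 arrays correlated best with their own number, while those of replicates 3 and 4 were below 0. Neither the labels nor these values settle whether the numbers pair the samples, and they were not treated as pairs. Signal over background limits Syt1, Syt2 and the 7 dim synaptotagmins.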
